A study of Arabidopsis thaliana with 12 samples.

Results

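The 9 ATG8 genes of Arabidopsis thaliana, ATG8A to ATG8I, were followed in leaves of wild type and 3 mutants impaired in starch breakdown. A gene was taken as a member when its symbol or a synonym in the platform annotation was ATG8A to ATG8I and it had a probe set matched to 1 gene only. All 9 members met the rule with 1 probe set each, out of 13513 probe sets with 1 gene, and 0 probe sets shared by several genes named an ATG8 gene. ATG8A (AT4G21980) is listed on the platform as APG8A and ATG8I (AT3G15580) as APG8H. The others are ATG8B (AT4G04620), ATG8C (AT1G62040), ATG8D (AT2G05630), ATG8E (AT2G45170), ATG8F (AT4G16520), ATG8G (AT3G60640) and ATG8H (AT3G06420).

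Autophagy carries cytoplasm, proteins and organelles, including pieces of chloroplasts, to the vacuole for breakdown. ATG8 is a small ubiquitin-like protein that is joined to the lipid phosphatidylethanolamine on the growing autophagosome membrane, where it helps to form the vesicle and binds the receptors that bring in cargo. Plants have an ATG8 family rather than a single gene, and in leaves autophagy is known to recycle material when darkness or a lack of sugar limits the carbon supply. Most ATG8 proteins must be trimmed by the protease ATG4 to expose a C-terminal glycine, whereas ATG8H and ATG8I are made with that glycine already at the end.

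The 12 arrays came from 4 genotypes with 3 arrays each: wild type Columbia (WT), sex1-3, sex4-3 and ptpkis2. SEX1 is glucan, water dikinase, which phosphorylates starch so that it can be opened and degraded, and SEX4 is a phosphatase that removes that phosphate again. PTPKIS2 is a related protein, also called LSF1. Per the labels, sex1-3 is an induced mutation in Col-0, while sex4-3 and ptpkis2 are the insertion lines Salk_102567 and Salk_053285. Each mutant was 1 line, and no other allele or treatment is given for any group. Plants of all 4 genotypes grew at 20 °C under 100 micromol m-2 s-1 of light, and 8 plants per genotype gave 3 leaves. The harvest was 0.5 h before the end of the night in a 12 h photoperiod, so every value describes the end of the night. No probe set used here was named SEX1, SEX4 or LSF1, so the genotypes were not checked by the transcripts of the mutated genes. Nothing in the labels says that arrays of 1 genotype were hybridised with RNA of different plants, and p-values thus rest on a spread among arrays that could be technical alone.

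Expression was read from the Affymetrix ATH1 array as a MAS5 signal, a linear brightness per probe set that the authors had scaled to a common level on each array. Levels are compared between genotypes for the same probe set and not between genes. WT replicate 2 stood apart: its correlation with the other arrays was r = 0.586 to 0.604, against 0.891 to 0.93 among the other 11 arrays, and its median signal was 62.2, against 24 to 29.7. The tests are therefore given with all 12 arrays and with the 11 arrays other than WT replicate 2. Of the cell type and state markers listed for the check, few had a named probe set. RCA, the activase of Rubisco and 1 of 16 listed symbols of leaf mesophyll markers, gave signals of 5870 to 12698 on the 12 arrays, while the pollen histone gene MGH3 gave 0.43 to 2.13 on 11 arrays and 19.9 on WT replicate 2. The other measured pollen marker, AGL65, gave 20.2 to 49.5 on 11 arrays and 8.24 on WT replicate 2. FMA (FAMA), a regulator of guard cell formation, gave 30 to 56.2 on 11 arrays and 6.03 on WT replicate 2. The senescence gene SAG101 gave 27.5 to 50.6 on all 12 arrays. The part of these levels in the ATG8 results was not tested. In whole leaves, fewer cells of a type and less RNA per cell cannot be told apart.

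Among the 6 comparisons of genotypes, ptpkis2 against sex1-3 had the most ATG8 genes past the test. It also had the most of all probe sets called, 1291 with 12 arrays and 3970 with 11. All 9 members had a lower mean log2 signal in ptpkis2, by 0.19 to 1.15 on the log2 scale with a median of -0.89. The median over all probe sets tested was 0.08, and 43.5% of them with 12 arrays and 43.5% with 11 were not above 0. With 12 arrays 1 of the 9 members, ATG8F, passed the limma test at an adjusted p below 0.05, in a comparison where 4.18% of the 13648 probe sets tested were called lower and 9.46% were called in either direction. With 11 arrays 7 members were called lower (ATG8A, ATG8B, ATG8C, ATG8E, ATG8F, ATG8H and ATG8I), while 12.3% of all probe sets were called lower and 29.1% in either direction. In the same 7 members every ptpkis2 array lay below every sex1-3 array, a separation seen in 19.2% of all probe sets. At an unadjusted p below 0.05, 7 members passed with either set of arrays, where 22% of all probe sets did with 12 arrays and 40.1% with 11. The log2 differences of this comparison use no WT array, so they are the same with 12 and with 11 arrays. WT replicate 2 enters it through the spread shared by the genotypes and through the filter on low mean signal, which sets the probe sets tested. A fit of the sex1-3 and ptpkis2 arrays alone, after the filter on 12 arrays, called the same 7 members. That fit called 4257 of the 13648 probe sets in either direction, 1849 of them lower. All 9 members also had a lower mean in ptpkis2 after quantile normalization and after centring each array on its median. With 12 arrays, 50.02% and 39.2% of all probe sets were above 0 after these 2 steps. Centring thus moved the median of all probe sets below 0 as well, to -0.16, and that of the members to -1.13.

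**Figure D1:**
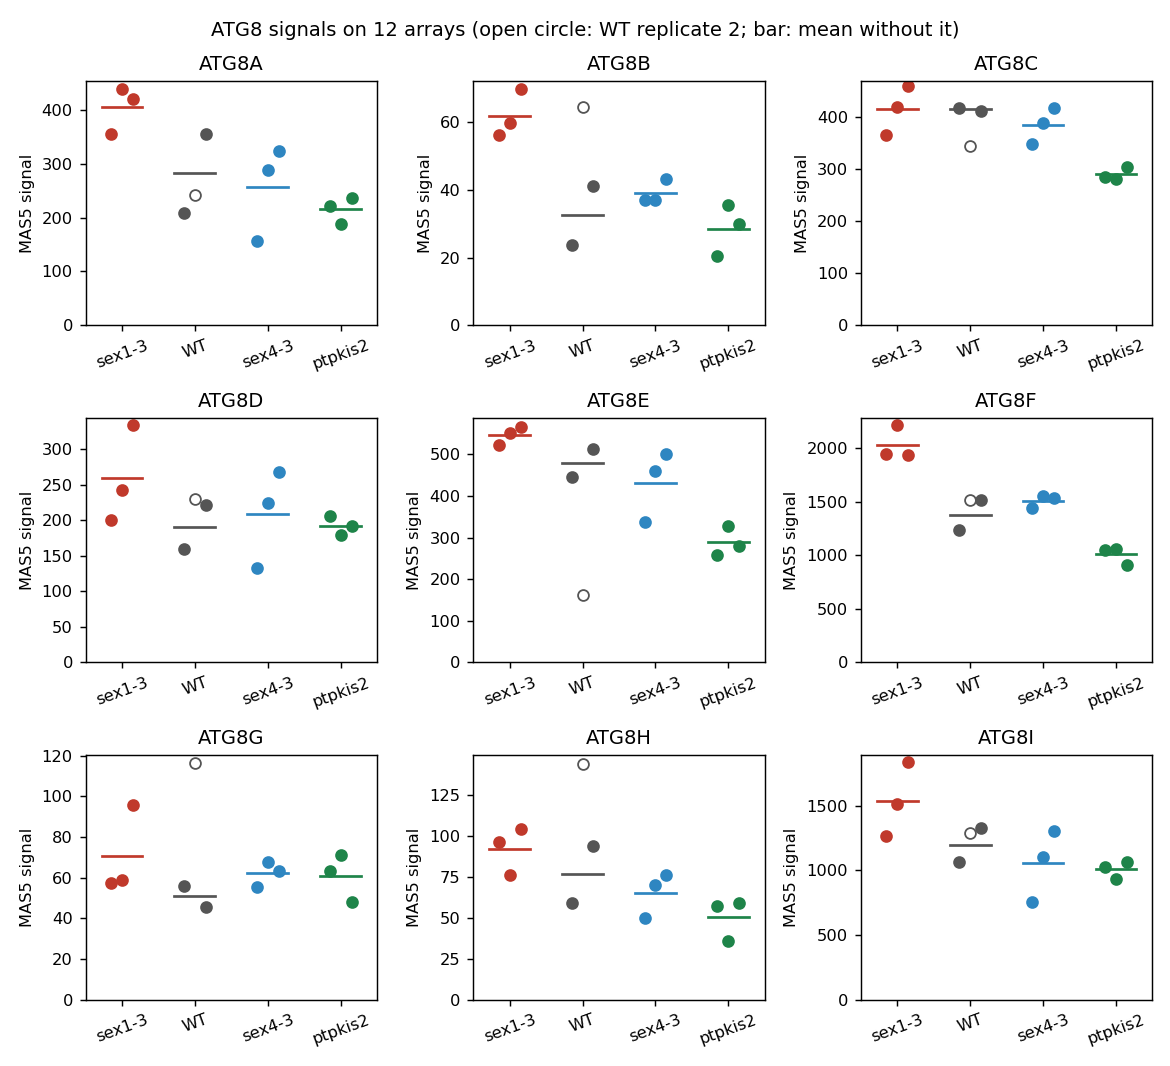
MAS5 signal (linear axis from 0) of each of the 9 ATG8 genes on each array, by genotype, with WT replicate 2 as an open circle and the mean without it as a bar. For ATG8A, ATG8B, ATG8C, ATG8E, ATG8F, ATG8H and ATG8I the 3 ptpkis2 points lie below the 3 sex1-3 points, and WT replicate 2 is the lowest of 12 points for ATG8E and the highest for ATG8G and ATG8H.

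The first subfamily holds ATG8A to ATG8D. ATG8A gave signals of 209, 242 and 356 in WT, 355, 439.7 and 421 in sex1-3, 157, 289 and 323 in sex4-3, and 222, 189 and 237 in ptpkis2. The sex1-3 arrays lay above all arrays of sex4-3 and ptpkis2 but overlapped WT, whose replicate 3 equalled the lowest sex1-3 array to within 1 signal unit. From sex1-3 to ptpkis2 the mean went from 405 ± 44.5 to 216 ± 24.5 (SD, n = 3 each), a log2 difference of -0.91 ± 0.28 (SE). The adjusted p was 0.064 with 12 arrays and 0.013 with 11, where the SE was 0.25.

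ATG8B, with signals of 23.8, 64.4 and 41.1 in WT, 56.1, 59.8 and 69.6 in sex1-3, 37, 37 and 43.3 in sex4-3, and 20.3, 35.5 and 29.8 in ptpkis2, had the largest log2 difference of the family between ptpkis2 and sex1-3. It was lower in ptpkis2 than in sex1-3 by 2.22-fold (log2 difference -1.15 ± 0.36 SE, adjusted p = 0.071 with 12 arrays and 0.0045 with 11). All sex4-3 and ptpkis2 arrays were below all sex1-3 arrays. WT replicate 2 at 64.4 lay inside the sex1-3 range, and the other WT arrays lay below it. Over the 11 arrays other than WT replicate 2, ATG8B lay at percentiles 43.6 to 68.4 of an array. A stricter filter, on the lowest 60% by mean signal, left ATG8B out of the test.

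ATG8C gave signals of 417, 345 and 411 in WT, 365, 419.6 and 459 in sex1-3, 347, 388 and 416 in sex4-3, and 284, 280.2 and 304 in ptpkis2. The 3 ptpkis2 arrays were the lowest of the 12, while the other genotypes overlapped one another. Against sex1-3 the ptpkis2 mean was lower by 1.43-fold (log2 difference -0.51 ± 0.16 SE, adjusted p = 0.063 with 12 arrays and 0.0082 with 11).

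ATG8D gave 160.4, 229 and 222 in WT, 200.3, 243 and 334 in sex1-3, 133, 224 and 268 in sex4-3, and 206, 179.7 and 191 in ptpkis2. Its groups overlapped in every pair of genotypes. The difference of ptpkis2 from sex1-3 was -0.40 ± 0.28 (SE) on the log2 scale, with a 95% interval of -1.0 to 0.20 and an adjusted p of 0.47. With 11 arrays the interval was -0.92 to 0.12 (adjusted p = 0.24), so neither fit settled whether ATG8D differed.

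The second subfamily holds ATG8E, ATG8F and ATG8G. ATG8F gave 1239.8, 1519 and 1520.2 in WT, 1944, 2216 and 1933 in sex1-3, 1440.4, 1556 and 1536 in sex4-3, and 1054, 1061 and 913 in ptpkis2. Every sex1-3 array was above every other array, and every ptpkis2 array was below every other array, whereas WT and sex4-3 overlapped. The mean fell from 2031 ± 160.3 in sex1-3 to 1009 ± 83.2 in ptpkis2 (SD, n = 3 each), which is 2.01-fold. The log2 difference was -1.01 ± 0.16 (SE, 95% interval -1.35 to -0.67), with an adjusted p of 0.002 with 12 arrays and 4.6e-05 with 11. In the moderated F-test for any difference among the genotypes, ATG8F was the only member with an adjusted p below 0.05 with 12 arrays (0.0153), where 4.55% of all probe sets passed. With 11 arrays 4 members passed, ATG8B (0.024), ATG8C (0.0279), ATG8E (0.0037) and ATG8F (0.00046), beside 20.4% of all probe sets.

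ATG8E gave 447, 162 and 513 in WT, 522, 553 and 567 in sex1-3, 337, 459 and 502 in sex4-3, and 258, 327 and 281 in ptpkis2. WT replicate 2, at 162, was the lowest of all 12 arrays and lay below the ptpkis2 range, while the other WT arrays lay between the ptpkis2 and the sex1-3 ranges. The WT mean was 374 ± 187 with it (SD, n = 3) and 480.1 ± 46.8 without it (SD, n = 2). Between ptpkis2 and sex1-3, the log2 difference was -0.93 ± 0.35 (SE, 1.91-fold lower, adjusted p = 0.14) with 12 arrays, and its SE was 0.16 with 11 (adjusted p = 0.00055).

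ATG8G, with signals of 56, 117 and 45.4 in WT, 57.2, 59 and 95.6 in sex1-3, 55.1, 67.9 and 63.1 in sex4-3, and 63.3, 70.9 and 48 in ptpkis2, had the smallest difference of the family between ptpkis2 and sex1-3. WT replicate 2 at 117 was the highest of the 12 arrays. The log2 difference of ptpkis2 from sex1-3 was -0.19 ± 0.35 (SE), with a 95% interval of -0.96 to 0.57 (adjusted p = 0.84). With 11 arrays the interval was -0.68 to 0.29 (adjusted p = 0.56). The log2 difference was 0.045 when sex1-3 replicate 3, at 95.6, was left out.

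ATG8H and ATG8I form the third subfamily, the one made with an exposed glycine. ATG8H gave 59.3, 144 and 94.2 in WT, 96.6, 76.3 and 104 in sex1-3, 49.8, 70 and 76 in sex4-3, and 57, 35.6 and 59.3 in ptpkis2. WT replicate 2 was again the highest array, and sex1-3 lay above sex4-3 and ptpkis2 without overlap. The gap to sex4-3 was narrow, with sex1-3 replicate 2 at 76.28 and sex4-3 replicate 3 at 76.04. From sex1-3 to ptpkis2 the log2 difference was -0.89 ± 0.34 (SE, 1.85-fold lower, adjusted p = 0.14 with 12 arrays and 0.016 with 11).

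ATG8I gave 1060.3, 1289 and 1329.9 in WT, 1265, 1514 and 1835 in sex1-3, 757, 1104 and 1305 in sex4-3, and 1023, 929 and 1067 in ptpkis2. The 3 ptpkis2 arrays lay below the 3 sex1-3 arrays and within the range of sex4-3. The log2 difference of ptpkis2 from sex1-3 was -0.60 ± 0.22 (SE, 1.51-fold lower, adjusted p = 0.13 with 12 arrays and 0.03 with 11).

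**Figure D2:**
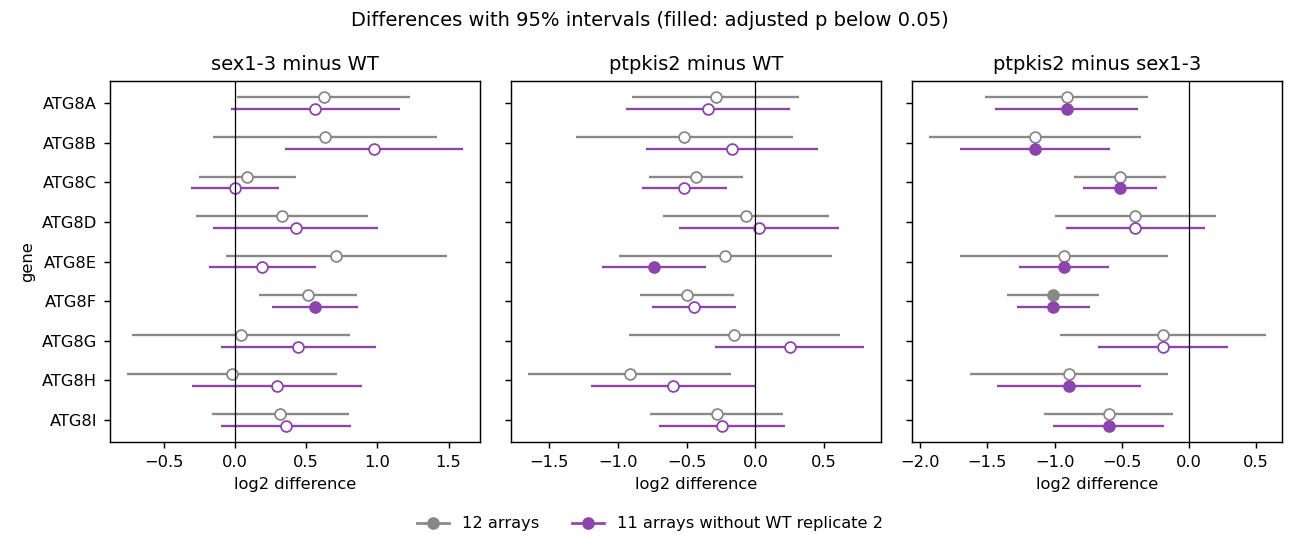
Log2 differences between genotypes (x axis) with 95% intervals for each ATG8 gene (y axis), with 12 arrays and with 11 arrays, filled where the adjusted p was below 0.05. In the panel of ptpkis2 minus sex1-3 all 9 points lie left of 0, with 1 filled with 12 arrays and 7 filled with 11.

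Each mutant was compared with the same WT arrays, so the 3 comparisons with WT are not independent. For sex1-3 against WT, ATG8F was the 1 member called with 11 arrays. ATG8B had a larger log2 difference there, 0.98 ± 0.29 (SE), with a limma adjusted p of 0.052. With 11 arrays ATG8F was higher than WT by 1.48-fold (log2 difference 0.56 ± 0.14 SE, 95% interval 0.26 to 0.86, adjusted p = 0.024), and 3.23% of all probe sets were called higher. With 12 arrays the value for ATG8F was 0.51 ± 0.16 (SE, adjusted p = 0.11), 0 members were called in either direction and 1.08% of all probe sets were called higher. In either direction 2.95% of all probe sets were called with 12 arrays and 8.87% with 11. At an unadjusted p below 0.05, 2 members passed with 12 arrays and 2 with 11, where 19.9% and 23.6% of all probe sets did. The log2 difference was above 0 in 8 of 9 members with either set of arrays, where 48.5% and 44.3% of all probe sets were above 0. Its median was 0.33 with 12 arrays and 0.42 with 11, where the medians over all probe sets were -0.02 and -0.06.

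Non-overlap of sex1-3 above WT was seen for ATG8E and ATG8F with 12 arrays, and for these and ATG8B and ATG8G with 11. The share of all probe sets with this separation was 10.7% and 16.4%. For ATG8E the difference depended on WT replicate 2: it was 0.71 ± 0.35 (SE, adjusted p = 0.28) with that array and 0.19 ± 0.18 (SE, 95% interval -0.18 to 0.57, adjusted p = 0.56) without it. ATG8B went the other way, from 0.63 ± 0.36 (SE, adjusted p = 0.33) to 0.98 ± 0.29 (SE, adjusted p = 0.052), and ATG8G from 0.04 ± 0.35 (SE, adjusted p = 0.95) to 0.44 ± 0.25 (SE, adjusted p = 0.32). None of these 3 passed the test.

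For ptpkis2 against WT, ATG8E fell with 11 arrays, by 1.67-fold (log2 difference -0.74 ± 0.18 SE, 95% interval -1.11 to -0.36, adjusted p = 0.04). It was the 1 member called lower, beside 1.87% of all probe sets, with 2.7% called in either direction. With 12 arrays the difference of ATG8E was -0.22 ± 0.35 (SE, adjusted p = 0.75), and 0 members were called, beside 0.264% of all probe sets in either direction and 0.191% lower. At an unadjusted p below 0.05, 3 members passed with 12 arrays and 3 with 11, where 12.5% and 15.7% of all probe sets did. ATG8C, ATG8F and ATG8H lay below WT without overlap with 12 arrays, and with 11 arrays ATG8E did too, a separation found in 7.41% and 16.7% of all probe sets. Their differences with 12 arrays were -0.43 ± 0.16 (SE, adjusted p = 0.34) for ATG8C, -0.50 ± 0.16 (SE, adjusted p = 0.27) for ATG8F and -0.91 ± 0.34 (SE, adjusted p = 0.34) for ATG8H. With 11 arrays they were -0.52 ± 0.14 (adjusted p = 0.075), -0.45 ± 0.14 (adjusted p = 0.12) and -0.60 ± 0.28 (adjusted p = 0.32), and none of the 3 passed the test. For ATG8H the separation from WT was nearly a tie, with ptpkis2 replicate 3 at 59.252 and WT replicate 1 at 59.303.

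For ptpkis2 against WT with 12 arrays, the direction over the family depended on how the arrays were scaled. With 12 arrays all 9 members had a lower mean in ptpkis2, and with 11 arrays 7 did, with medians of -0.29 and -0.34 where all probe sets had medians of 0.05 and 0.03 and 46.4% and 46.6% of them were not above 0. Centring each of the 12 arrays on its median left 4 of 9 members below WT, but it also moved the median of all probe sets to 0.36, and the median of the members was then 0.02. The same step moved the median of all probe sets for sex1-3 against WT to 0.52, and that of the members to 0.87. With 11 arrays, centring left 8 of 9 members below WT in ptpkis2 and 9 of 9 above WT in sex1-3. Of all probe sets, 43.8% and 59.5% were then above 0 in these comparisons. Quantile normalization of the 12 arrays left 9 of 9 members below WT in ptpkis2 and 8 of 9 above WT in sex1-3. There 59.5% and 58.6% of all probe sets were above 0.

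In sex4-3 no member separated from WT. With 12 arrays 0 members were called and with 11 arrays 0, by limma, beside 0.00733% of all probe sets in each case. At an unadjusted p below 0.05 the counts were also 0 and 0, where 5.23% and 4.68% of all probe sets passed. No member's sex4-3 arrays lay wholly above or below WT, a separation seen in either direction in 8.54% of all probe sets with 12 arrays and 17.6% with 11. For ATG8F the difference from WT was 0.09 ± 0.16 (SE, 95% interval -0.25 to 0.43) with 12 arrays and 0.14 ± 0.14 (95% interval -0.17 to 0.44) with 11. For ATG8E it was 0.35 ± 0.35 (SE, adjusted p = 0.62) with 12 arrays and -0.17 ± 0.18 (95% interval -0.54 to 0.21) with 11.

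The comparisons between sex4-3 and the other mutants used no WT array for the differences themselves. ATG8F was lower in sex4-3 than in sex1-3 by 1.34-fold (log2 difference -0.42 ± 0.16 SE, adjusted p = 0.24 with 12 arrays and 0.038 with 11). It was the 1 member called with 11 arrays, beside 5.58% of all probe sets called lower, and with 12 arrays 0 were called beside 0.806%. At an unadjusted p below 0.05, 3 members passed with 12 arrays and 5 with 11, beside 13.4% and 28.7% of all probe sets. ATG8A, ATG8B, ATG8E, ATG8F and, narrowly (76.04 against 76.28), ATG8H lay below sex1-3 without overlap, a separation seen in 13.5% of all probe sets. The 4 of them other than ATG8F did not pass the test: with 11 arrays the differences were -0.72 ± 0.25 (SE, adjusted p = 0.068) for ATG8A and -0.66 ± 0.26 (SE, adjusted p = 0.11) for ATG8B. They were -0.36 ± 0.16 (SE, adjusted p = 0.15) for ATG8E and -0.51 ± 0.25 (SE, adjusted p = 0.19) for ATG8H.

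ATG8F was also lower in ptpkis2 than in sex4-3, by 1.5-fold (log2 difference -0.58 ± 0.16 SE, 95% interval -0.93 to -0.24, adjusted p = 0.41 with 12 arrays). With 11 arrays the interval was -0.86 to -0.31 and the adjusted p 0.033. It was the 1 member called lower with 11 arrays, beside 1.12% of all probe sets, and 0 were called with 12 arrays, beside 0.0513%. At an unadjusted p below 0.05, 2 members passed with 12 arrays and 3 with 11, where 4.48% and 13.2% of all probe sets did. ATG8B, ATG8C, ATG8E and ATG8F lay below sex4-3 without overlap, which 9.58% of all probe sets did. With 11 arrays the differences of the 3 that were not called were -0.49 ± 0.26 (SE, adjusted p = 0.47) for ATG8B, -0.40 ± 0.13 (adjusted p = 0.16) for ATG8C and -0.57 ± 0.16 (adjusted p = 0.094) for ATG8E.

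With 11 arrays ATG8F was called higher in sex1-3 than in WT, sex4-3 and ptpkis2, and lower in ptpkis2 than in sex4-3. Its WT and sex4-3 arrays overlapped, and its difference between ptpkis2 and WT did not pass the test. In ATG8E with 11 arrays the order of the means was sex1-3, WT, sex4-3 and ptpkis2, and neither sex1-3 against WT nor sex4-3 against WT passed the test. The median of the log2 differences over the 9 members was -0.42 for sex4-3 minus sex1-3 and -0.38 for ptpkis2 minus sex4-3, and all 9 were below 0 in both. The medians over all probe sets were 0.04 and 0.03 with 12 arrays. Of all probe sets, 46.3% with 12 arrays and 46.2% with 11 were not above 0 in the first of these comparisons, and 45% and 44.9% in the second.

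Whether ATG8E and ATG8F moved by unequal amounts was tested on their log2 difference within each array, by an exact permutation test over arrays, two-sided. By this exact test, the change in ATG8E minus ATG8F was 0.08 for ptpkis2 minus sex1-3 (exact permutation p = 0.6), 0.07 for sex4-3 minus sex1-3 (p = 0.7) and 0.01 for ptpkis2 minus sex4-3 (p = 1). Against WT the sign depended on WT replicate 2. With 12 arrays the 3 mutants differed from WT by 0.20, 0.26 and 0.28 in sex1-3, sex4-3 and ptpkis2 (exact p = 1 in each, adjusted p = 1 over the 6 comparisons). With 11 arrays they differed by -0.37, -0.30 and -0.29, and each p was 0.2, the smallest that 3 against 2 arrays can give. The smallest p for 3 against 3 arrays is 0.1, so an unequal change could not have passed 0.05 in this test.

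Members also varied together among the arrays of sex4-3 and among those of sex1-3. In sex4-3, replicate 1 was the lowest of the 3 arrays for 8 of 9 members, where it was lowest for 35.8% of all probe sets, and replicate 3 was the highest for 7 of 9 members, against 33.4%. In sex1-3, replicate 1 was the lowest for 7 of 9 members, against 29.5% of all probe sets, and replicate 3 the highest for 7, against 30.8%. In WT, replicate 1 was the lowest for 6 of 9 members, against 26% of all probe sets. WT replicate 2 was the highest for 4, against 42.8%, and the lowest for 2, against 47.5%. In ptpkis2, replicate 2 was the lowest for 5 members, against 31.9% of all probe sets. Replicates 2 and 3 of ptpkis2 were each the highest for 4, against 33.7% and 31.1%.

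As a description over the 11 arrays, which are the same for every pair and fall into 4 genotypes, Pearson's r of log2 signals was above 0 in all 36 pairs of members, from 0.08 to 0.95 with a median of 0.69. After each genotype's mean was removed, r was above 0 in 32 of 36 pairs, from -0.10 to 0.98 with a median of 0.43. With WT replicate 2 included, r was above 0 in 35 of 36 pairs, from -0.39 (ATG8E with ATG8G) to 0.92 with a median of 0.60. Within genotypes it was then above 0 in 27 of 36 pairs, from -0.65 to 0.98 with a median of 0.40. ATG8D and ATG8I had the highest r within genotypes, 0.98, followed by ATG8A and ATG8I at 0.90. These pairs were at 0.98 and 0.86 with 12 arrays. The r of ATG8F with the 8 other members was 0.28 to 0.88 over the 11 arrays and -0.01 to 0.51 within genotypes, lower within genotypes for each of the 8. With 12 arrays the r of ATG8F with ATG8E within genotypes was -0.16, against 0.44 with 11. The r within genotypes is not given for pairs of other genes, so these values have no background to be set against.

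**Figure D3:**
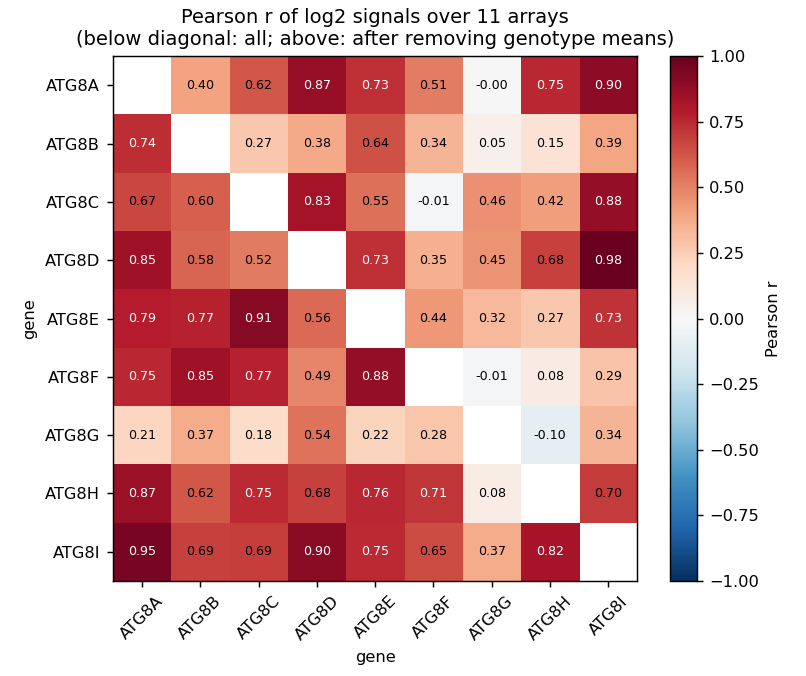
Pearson's r of log2 signals for each pair of ATG8 genes over 11 arrays, with all arrays below the diagonal and after removal of the genotype means above it. All 36 pairs are above 0 below the diagonal, and the pairs among ATG8A, ATG8C, ATG8D and ATG8I have r of 0.62 to 0.98 above it.

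The genes whose pattern was most like ATG8E and ATG8F were ranked by Pearson's r over the 11 arrays among 7394 probe sets with 1 gene. The median r of all of them was -0.09 for ATG8E and -0.11 for ATG8F. Nearest to ATG8E were AT3G13062 (r = 0.98), AT1G32700 (0.98), AT4G27450 (0.96), UBC19 (AT3G20060, 0.95), a ubiquitin-conjugating enzyme gene, and AT5G62900 (0.95). AT4G27450 had mean signals of 605 in WT, 1316 in sex1-3, 414 in sex4-3 and 106 in ptpkis2. Most opposite to ATG8E were AT2G46630 (r = -0.96), AT2G38010 (-0.94) and AT3G15010 (-0.94). With 12 arrays the r of these 3 was -0.98, -0.92 and -0.42. With WT replicate 2 included the r of the 5 nearest fell to between 0.52 and 0.86.

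Nearest to ATG8F were AT1G33050 (r = 0.98), AT1G65280 (0.97), AT4G17070 (0.96), AT3G55960 (0.96) and AT3G62650 (0.96). AT3G62650 had mean signals of 417 in WT, 898 in sex1-3, 421 in sex4-3 and 262 in ptpkis2, the same order as ATG8F. CSLC5 (AT4G31590), a member of the cellulose synthase-like family, was the most opposite, with r = -0.97 and mean signals of 69.2, 29.1, 62.3 and 112. AT4G39840 (r = -0.97) and AT2G40280 (-0.96) followed. With 12 arrays the r of AT1G65280 was 0.24 and that of AT4G39840 was -0.55, while CSLC5 stayed at -0.97 and AT2G40280 at -0.96. The other 4 of the 5 nearest to ATG8F had r of 0.71 to 0.93. Over the 11 arrays ATG8C ranked highest of the family against ATG8E, at place 54 (r = 0.91, and 0.71 with 12 arrays). ATG8E ranked highest against ATG8F, at place 200 (r = 0.88), but with 12 arrays its r was 0.58, below that of ATG8B at 0.80.

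AKINBETA1, which encodes a β subunit of SnRK1, a kinase that senses low energy, stood at place 14 against ATG8F (r = 0.95 over 11 arrays and 0.94 over 12) and at place 133 against ATG8E (r = 0.87 over 11 arrays and 0.66 over 12), the places being those over 11 arrays. Its signals were 474, 418 and 459 in WT, 1272, 1196 and 1181 in sex1-3, 432, 462 and 477 in sex4-3, and 199, 207 and 215 in ptpkis2. As for ATG8F, all sex1-3 arrays were highest, all ptpkis2 arrays were lowest, and WT and sex4-3 overlapped. The log2 difference of ptpkis2 from sex1-3 was -2.55 ± 0.14 (SE) for AKINBETA1, against -1.01 ± 0.16 for ATG8F. The r of AKINBETA1 and of the nearest genes include the differences between genotype means. An r within genotypes is not given for them.

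**Figure D4:**
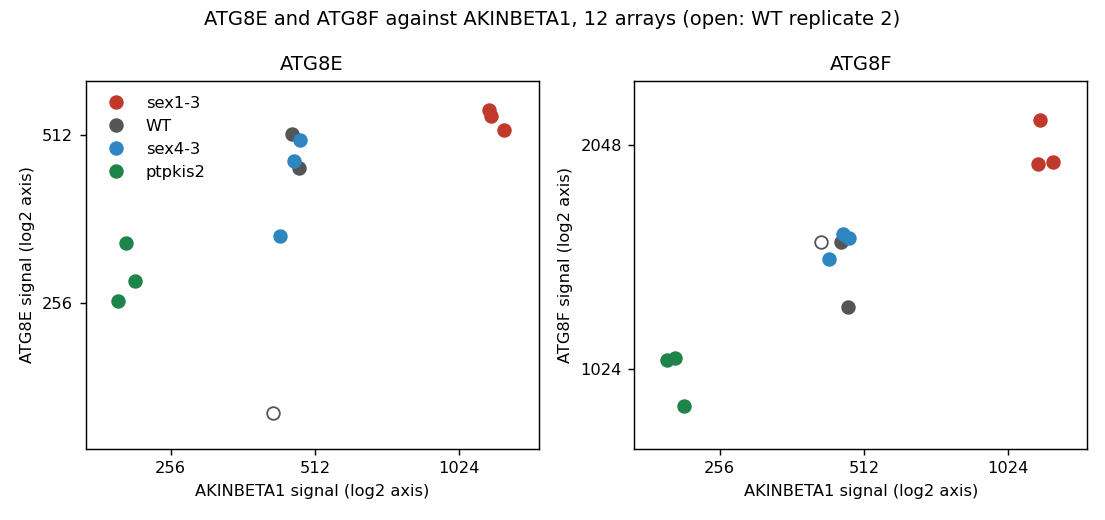
Signal of ATG8E and of ATG8F (y axes, log2 scale) against the signal of AKINBETA1 (x axis, log2 scale), 1 point per array coloured by genotype, with WT replicate 2 open. The ptpkis2 points are lowest and the sex1-3 points highest on both axes, apart from WT replicate 2, which lies lowest for ATG8E.

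Other genes of the pathway could be followed only in small part. Of 47 listed symbols of autophagy genes outside the ATG8 family, some of which name the same gene, 2 had a named probe set of 1 gene and both are named for that reason. AT5G66930 encodes ATG101, a subunit of the kinase complex that starts autophagy, and ATG3 (AT5G61500) is the enzyme that transfers ATG8 to its lipid. The limma test called 0 of these 2 in each of the 6 comparisons, with 12 and with 11 arrays, and 0 of 2 had an unadjusted p below 0.05. Of all probe sets, 0.00733% to 9.46% were called in a comparison with 12 arrays and 0.00733% to 29.1% with 11. At an unadjusted p below 0.05, 4.48% to 22% and 4.68% to 40.1% passed. With 2 genes, counts of 0 cannot be told from these shares. AT5G66930 gave 98.1, 150.2 and 134.7 in WT, 109, 107 and 121 in sex1-3, 76.5, 97 and 115 in sex4-3, and 88.4, 91.9 and 95.2 in ptpkis2. The ptpkis2 arrays lay below all WT and sex1-3 arrays, with log2 differences of -0.45 ± 0.22 (SE, adjusted p = 0.41) and -0.29 ± 0.22 (SE, adjusted p = 0.51). ATG3 gave 142, 111 and 169 in WT, 153, 148 and 177 in sex1-3, 128, 156 and 188 in sex4-3, and 135, 155 and 141 in ptpkis2, with overlap in every comparison. Its difference of ptpkis2 from sex1-3 was -0.15 ± 0.21 (SE, 95% interval -0.61 to 0.30).

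The energy-sensing list held 15 symbols, some of which name the same gene. Besides AKINBETA1, 2 genes of this list were measured, RAPTOR1 (AT3G08850) and RAPTOR2 (AT5G01770), which encode versions of a subunit of the TOR kinase complex, a repressor of autophagy. RAPTOR1 was called in 0 of the 6 comparisons with 12 or with 11 arrays, where 0.00733% to 9.46% and 0.00733% to 29.1% of all probe sets were called. RAPTOR2 gave 6.91, 10.1 and 16.6 in sex1-3 and 22.9, 33.9 and 31.8 in ptpkis2, and the ptpkis2 arrays were higher without overlap. These are low signals: over the 11 arrays RAPTOR2 lay at percentiles 27.0 to 52.2 of an array. The log2 difference was 1.47 ± 0.86 (SE, adjusted p = 0.37) with 12 arrays and 1.47 ± 0.40 (SE, adjusted p = 0.013) with 11. Of all 13648 probe sets, 721 were called higher with 12 arrays and 2286 with 11, and 3558 and 3571 were higher without overlap. WT replicate 2 gave 169.8 for RAPTOR2, against 13 and 10.1 on the other WT arrays.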

How the data were processed

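Leaf RNA of 4 genotypes was measured on 12 ATH1 arrays. Per the submitters' processing notes the values came from MAS5 and GCOS, whose versions were not stated. Values as deposited are 1 linear signal intensity per probe set and array. The mean after trimming 2% at each end was 100.007 to 100.012 on the 12 arrays, so the authors had scaled them to a common level. The number of arrays limits the precision.

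Log2 values were taken without a pseudocount. Of 22810 probe sets, 64 controls were left out, as were the remaining ones in the lowest 40% by mean log2 signal, which kept 13648 and all 9 members. limma 3.58.1 in R 4.3.3 (lmFit, eBayes with a trend, 8 residual degrees of freedom, or 7 with 11 arrays) gave 6 two-sided comparisons, adjusted by Benjamini-Hochberg over all kept probe sets and called at an adjusted p below 0.05. Values after ± are SE for log2 differences and SD for signals. The fit was tested on simulated data. Exact permutation tests used SciPy 1.17.1.

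Names came from the platform annotation and a RefSeq table of TAIR10.1 that served for names only. It held 13436 of the 13513 probe sets with 1 gene; 503 had several genes and 8730 are unnamed here. Coordinates and sequences are not given, and cross-hybridisation between ATG8 genes was not tested. Named are every member, the measured genes of an autophagy list and an energy-sensing list, and, for ATG8E and ATG8F, the 5 genes with the highest and the 3 with the lowest r over 11 arrays. The members, lists and tests were chosen with earlier results of these data known. Alternatives were quantile normalization, median centring, other filters, a floor or pseudocount at the 20th percentile, no trend, array weights, fits of the compared genotypes alone, a replicate block, and each array left out. Block, quantile and centring on 11 arrays, and correlations among members on 12, were added after seeing the data.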

Additional observations from a re-analysis of the deposited data

How the results depend on the processing

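The decrease of ATG8F from sex1-3 to ptpkis2 was called in all 22 alternatives on the 12 arrays, with log2 differences of -1.25 to -0.94 and adjusted p of 5.9e-06 to 0.048. The counts of members called changed more. With array weights, 3 members were called for sex1-3 against WT (ATG8A, ATG8B, ATG8F), 2 for ptpkis2 against WT, 7 for ptpkis2 against sex1-3, 3 for sex4-3 against sex1-3 and 3 for ptpkis2 against sex4-3. Of all 13648 probe sets, array weights called 2015, 798, 4628, 2819 and 993 in the same order, in either direction. Fits of the compared genotypes alone gave 7, 1 and 1 members for the last 3 of these comparisons, beside 4257, 1461 and 205 of all probe sets. For ptpkis2 against sex1-3, quantile normalization, median centring, the filter on the lowest 60% and the replicate block each gave 2 members called, against 1. Of all probe sets these settings called 900, 470, 1273 and 1129, against 1291, and the filter left 9099 to test. ATG8B was not among those 9099. With each array left out in turn the counts of members ranged from 0 to 1 for sex1-3 against WT, 0 to 1 for ptpkis2 against WT, 1 to 7 for ptpkis2 against sex1-3, 0 to 1 for sex4-3 against sex1-3 and 0 to 1 for ptpkis2 against sex4-3. The upper values were those without WT replicate 2, and leaving out WT replicate 1, WT replicate 3 or sex4-3 replicate 1 gave 2 for ptpkis2 against sex1-3. For sex4-3 against WT the count was 0 in all 22, where 0 to 24 of all probe sets were called. Over all probe sets, the 1291 called for ptpkis2 against sex1-3 became 679 to 3970 with an array left out and 470 to 4628 in the other settings. With an array left out, the totals were 158 to 1211 for sex1-3 against WT and 6 to 369 for ptpkis2 against WT. They were 113 to 1907 for sex4-3 against sex1-3 and 2 to 225 for ptpkis2 against sex4-3.

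On the 11 arrays, 7 members stayed called for ptpkis2 against sex1-3 with the replicate block, quantile normalization and median centring. These settings called 4061, 3830 and 4332 of all 13648 probe sets in either direction. For sex1-3 against WT these 3 settings each gave 2 members, against 1, beside 1220, 1124 and 1397 of all probe sets. Median centring gave 2 members for ptpkis2 against WT, 3 for sex4-3 against sex1-3 and 2 for ptpkis2 against sex4-3, the replicate block gave 3 for sex4-3 against sex1-3, and quantile normalization gave 0 for ptpkis2 against sex4-3, against 1 in each. The totals over all probe sets were 456, 2150 and 329 with centring, 2079 with the block and 257 with quantile normalization. Over all probe sets, the deviations of same-numbered arrays had r of -0.07 to 0.11 over 18 pairs with 12 arrays and -0.17 to 0.29 over 15 pairs with 11. Of these, 2 and 3 pairs were over 0.1, so the numbers are not treated as pairs.

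Of the 54 member differences, 24 turned sign in at least 1 of the 22 settings (21 for ATG8B), and 0 of these were called with 12 arrays. Those among them that the report prints follow. ATG8E in sex4-3 against WT was -0.010 with array weights and -0.17 without WT replicate 2, and ranged up to 0.66 as single arrays were left out. ATG8E in ptpkis2 against WT, called with 11 arrays, was 0.086 with median centring and ranged from -0.74 to 0.093 with arrays left out. ATG8F in sex4-3 against WT was -0.15 with quantile normalization and ranged from -0.00894 to 0.14. ATG8G ranged from -0.24 to 0.44 in sex1-3 against WT and from -0.33 to 0.045 in ptpkis2 against sex1-3. ATG8E minus ATG8F against WT turned to -0.37, -0.30 and -0.29 in sex1-3, sex4-3 and ptpkis2 without WT replicate 2. In these cases the cause was not tested.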
